A study of Mus musculus with 12 samples.

Results

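The cAMP phosphodiesterases described here are 10 genes of the PDE3, PDE4, PDE7 and PDE8 subfamilies, namely Pde3a, Pde3b, Pde4a, Pde4b, Pde4c, Pde4d, Pde7a, Pde7b, Pde8a and Pde8b. They were taken by gene symbol from a table of 23420 genes, and all 10 were present. All 10 also passed the filter on low counts that left 15306 genes for testing. RNA of whole inguinal white adipose tissue (iWAT) was sequenced from 12 male C57BL/6 mice at 10 weeks of age. The mice fell into 4 groups of 3. All carried HIF2a loxP/loxP alleles, either alone (WT) or with Adipoq-Cre, which acts in adipocytes and leaves other cells of the pad intact (HIF2α AKO). Cre and loss of HIF2α can therefore not be told apart. Mice of each genotype were kept at thermoneutrality (TN, 30 °C) for 1 week or in cold (4 to 6 °C) for 3 days.

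Phosphodiesterases end the cAMP signal by hydrolysing cAMP to 5′-AMP. In adipocytes, noradrenaline released upon cold acts on β-adrenergic receptors, adenylyl cyclases make cAMP, and protein kinase A (PKA) then drives lipolysis and the thermogenic programme. PDE3B is the enzyme through which insulin lowers cAMP in fat cells. PDE4 enzymes are cAMP-specific and targets of rolipram, whereas PDE7 and PDE8 enzymes have a high affinity for cAMP and are not inhibited by rolipram.

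Each library held from 22368316 to 35204631 reads counted on genes. Epas1, which encodes HIF2α, was at 360 ± 76.7 CPM (counts scaled to a common library size by TMM; SD, n = 3 here and throughout) in TN WT and 348 ± 53.8 in TN HIF2α AKO, and at 627 ± 101 and 826 ± 138 in the 2 cold groups. Libraries labelled HIF2α AKO thus held no less Epas1 than WT beyond the spread between mice, so genotypes are given as labelled. Ucp1, the uncoupling protein of thermogenic fat, rose from 0.432 ± 0.222 to 2638 ± 752 CPM in WT. No defining marker of any of 8 cell type lists was at 0 in all libraries of a group. The 12 skeletal muscle markers summed to 1890 CPM in replicate 2 of TN HIF2α AKO and 1638 CPM in replicate 1 of cold HIF2α AKO, against at most 111 CPM in the other 10 libraries. The 8 epithelial markers summed to 278 CPM in replicate 3 of TN WT and to at most 12.1 CPM elsewhere.

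To show the promoter sequence that bears on cAMP signalling, the RefSeq promoter windows of GRCm38.p6 (250 bases before to 50 after each start) were searched for TGACG, the core of the cAMP response element, on both strands. The table held 16 promoters for 7 of the 10 genes, with none listed for Pde3a, Pde3b and Pde7a. The motif was in 4 of these 16, and in 20.8% of all 32851 promoters. The longer TGACGT, which contains TGACG, was in 2 of 16 against 7.51%, and the full palindrome TGACGTCA was in 0 of 16 against 1.79%. The 4 matches are printed 5′ to 3′ on the strand of the gene with the match in capitals, which reads CGTCA where it lies on the other strand. The distance is from the annotated start.
Pde4a, chr9:21184039-21184067, plus strand, at -50: ggcacagctcgaCGTCAggctggggagga
Pde4b, chr4:102421509-102421537, plus strand, at -34: gatttggctgcaCGTCAattttctcatct
Pde8a, chr7:81213169-81213197, plus strand, at -84: gctgctttgcatTGACGccagcagccgct
Pde8b, chr13:95223001-95223024, minus strand, at 38: ggaaagttggggTGACGcgcgctg
A match describes these letters only. Pde4c, Pde4d and Pde7b had no match in their listed windows.

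Pde3b was the most abundant of the 10 transcripts per length. To compare genes, CPM were divided by the kilobases of exon of each gene in GENCODE M21 (GRCm38). The mean level over the 12 libraries was 30.6 CPM per kb for Pde3b, 12.9 for Pde8a, 8.12 for Pde7a, 5.39 for Pde4b, 4.87 for Pde4a and 4.15 for Pde4d. Pde7b followed at 2.12 CPM per kb, and Pde4c, Pde8b and Pde3a were at 0.933, 0.651 and 0.580. Pde3b was first and Pde7b seventh in each of the 4 groups.

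The ranges over all 12 libraries overlapped for each of the 9 pairs of neighbours in this order. Within libraries, Pde3b was above Pde8a, Pde7a above Pde4b, Pde4d above Pde7b and Pde7b above Pde4c in 12 of 12. Pde8a was above Pde7a in 8 of 12 libraries, among them every cold library. Pde4b was above Pde4a in 6 of 12, namely every TN library, and below it in every cold library. The order depends on the length used. With the longest transcript in place of all exons, an alternative chosen after seeing the data, 6 of 10 ranks were unchanged, and Pde4b, Pde4d, Pde7a and Pde4a took ranks 3 to 6. Pde4a was then no longer above Pde4b in every cold library. In replicates 1 and 2 of cold WT, for example, it had fewer counts than Pde4b (ratios 0.761 and 0.793). Its longest transcript is the longer one, with 4653 bases against 4304.

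**Figure D1:**
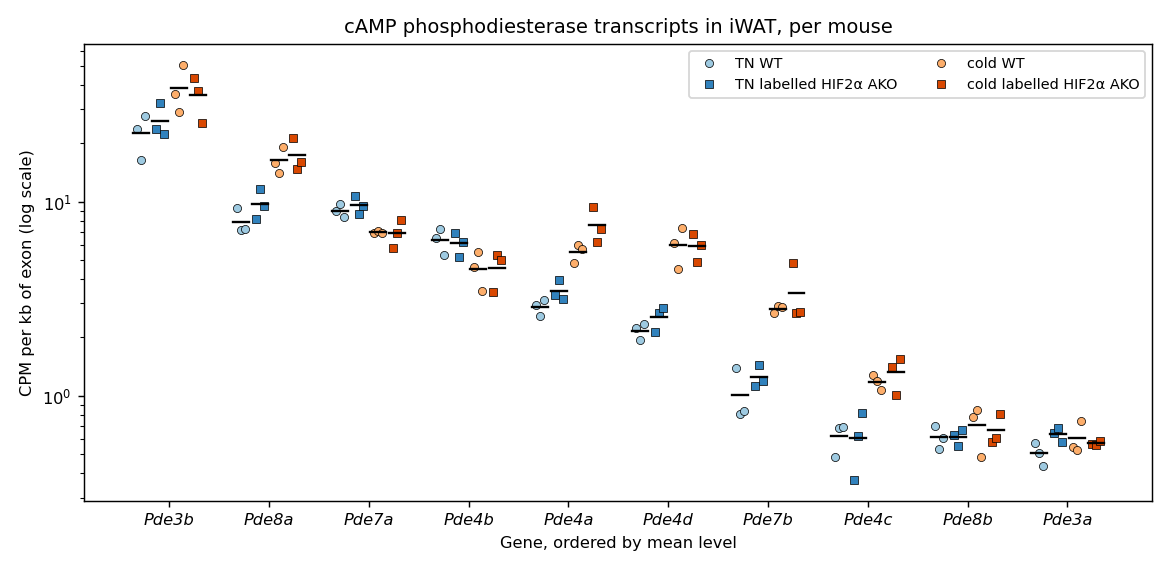
Level of each cAMP phosphodiesterase transcript (CPM per kb of exon, log axis) in each of the 12 mice, with points for mice, short lines for group means, and genes in order of mean level. Pde3b lies highest at 16.3 to 50.7 CPM per kb, and cold points lie above TN points for Pde4a, Pde4c, Pde4d, Pde7b and Pde8a.

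Upon cold, 5 of the 10 transcripts rose in WT iWAT, namely Pde4a, Pde4c, Pde4d, Pde7b and Pde8a, and 0 fell, though Pde7a was called lower in 7 of 13 alternatives. Among all genes tested, 15.6% rose and 5.68% fell in WT. The same 5 rose in the libraries labelled HIF2α AKO, where Pde7a fell and 15.6% of all genes rose and 11.5% fell. Calls are from edgeR's quasi-likelihood test at a Benjamini-Hochberg adjusted p under 0.05 over all 15306 genes. The median log2 fold change of the 10 genes was 0.85 in WT and 0.63 in HIF2α AKO, against -0.03 and -0.05 for all genes tested. Without replicate 1 of cold HIF2α AKO 4 were called in that genotype, and without replicate 2 of TN HIF2α AKO 6, these being the libraries with muscle markers. Without replicate 3 of TN WT, the library with epithelial markers, 7 were called in WT. In whole tissue, a change in the share of a cell type and a change in RNA per cell cannot be told apart.

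Cell type markers moved with cold too, and their part in these results was not tested. The 8 thermogenic adipocyte markers summed to between 28.4 and 90.6 CPM at TN and between 3349 and 8580 CPM in cold. The 8 white adipocyte markers summed to 13190 to 26380 CPM at TN and 27990 to 54020 CPM in cold in WT. In HIF2α AKO they summed to 19120 to 31840 CPM and 34060 to 40830 CPM, so the sum was higher in cold with no overlap in both genotypes. Single white adipocyte markers differed. In HIF2α AKO the mean of Fabp4 was 4247 CPM at TN and 12730 CPM in cold, and that of Lpl 4206 and 9253 CPM. Cfd (11220 and 8523 CPM) and Adipoq (1582 and 1570 CPM) had lower means in cold, and the rest of the list had higher ones. The 12 lymphocyte markers summed to 1391 to 2015 CPM at TN and 768 to 1308 CPM in cold in WT. In HIF2α AKO they summed to 1226 to 2018 CPM and 737 to 1159 CPM, with no overlap in either genotype. The 11 macrophage markers in the table summed to 3019 to 3342 CPM at TN and, with no overlap, to 1757 to 2091 CPM in cold in HIF2α AKO. In WT they overlapped, at 1874 to 3311 CPM and 1598 to 3106 CPM. The 8 endothelial markers summed to 966 to 1192 CPM at TN and, with overlap, 1180 to 1261 CPM in cold in WT. In HIF2α AKO they summed to 980 to 1130 CPM and, with no overlap, 1199 to 1321 CPM.

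Within the PDE4 subfamily, Pde4d (chr13:108449948-109953461, plus strand) had the largest fold change. It was at 26.8, 23.2 and 28.3 CPM in TN WT and at 73.2, 53.8 and 88.4 CPM in cold WT. In the libraries labelled HIF2α AKO it was at 25.7, 32.0 and 34.2 CPM at TN and at 81.9, 58.8 and 71.7 CPM in cold. Every cold library was above every TN library. The log2 fold change was 1.46 (SE 0.19, adjusted p = 9.09e-04 by edgeR) in WT and 1.21 (SE 0.19, adjusted p = 0.00145) in HIF2α AKO.

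Pde4a (chr9:21165714-21213248, plus strand) encodes another rolipram-sensitive enzyme. Its level was 22.5, 19.8 and 23.8 CPM in TN WT and 37.1, 46.1 and 43.8 CPM in cold WT. Among HIF2α AKO mice it was 25.3, 30.3 and 24.1 CPM at TN and 71.6, 47.6 and 55.4 CPM in cold. The TN and cold libraries did not overlap in either genotype. The highest of all 12 was replicate 1 of cold HIF2α AKO, which held skeletal muscle markers. That library also had the highest thermogenic adipocyte sum, at 8580 CPM against 5621 and 5885 CPM in the rest of its group. The part of either in the Pde4a level was not tested. Upon cold the log2 fold change was 0.94 (SE 0.15, adjusted p = 0.00262 by edgeR) in WT and 1.13 (SE 0.15, adjusted p = 7.34e-04) in HIF2α AKO. Without that library it was 0.96 in HIF2α AKO and still called.

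Pde4c was the least abundant PDE4 transcript, with counts between 53 and 217 per library. The lowest count, 53, has an exact Poisson 95% interval of 39.7 to 69.3, which covers counting error only. The transcript was at 3.47 ± 0.648 CPM in TN WT and 6.60 ± 0.585 CPM in cold WT, and at 3.38 ± 1.27 and 7.42 ± 1.57 CPM in HIF2α AKO. TN and cold libraries did not overlap in either genotype. The log2 fold change was 0.93 (SE 0.27, adjusted p = 0.0350 by edgeR) in WT and 1.13 (SE 0.27, adjusted p = 0.0143) in HIF2α AKO. The WT call was lost when any of 5 of the 6 WT libraries was left out, all but replicate 3 of TN WT, with adjusted p from 0.0653 to 0.113, and with library size alone (0.0813). The HIF2α AKO call was lost without replicate 1 of cold HIF2α AKO (adjusted p = 0.0548).

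Pde4b, a PDE4 gene well known for its role in immune cells, had negative log2 fold changes that did not pass the test. It was at 69.1, 76.0 and 56.2 CPM in TN WT and 48.8, 58.1 and 36.5 CPM in cold WT, and these groups overlapped. In HIF2α AKO it was at 73.3, 54.7 and 65.4 CPM at TN and 36.0, 56.1 and 53.1 CPM in cold. Its log2 fold change in cold was -0.49 (SE 0.21, adjusted p = 0.105 by edgeR) in WT and -0.41 (SE 0.21, adjusted p = 0.147) in HIF2α AKO. In WT the lower level was called without replicate 2 of cold WT (adjusted p = 0.0498) and with library size alone (0.0403).

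Of the PDE7 genes, Pde7b (chr10:20398004-20725078, minus strand) rose and its paralog Pde7a (chr3:19223108-19311322, minus strand) had lower values in cold. Pde7b was at 17.2, 10.1 and 10.5 CPM in TN WT and 33.2, 36.1 and 35.6 CPM in cold WT. Among HIF2α AKO mice it was at 14.0, 18.0 and 14.9 CPM at TN and 60.2, 33.2 and 33.8 CPM in cold. The groups did not overlap, and replicate 1 of cold HIF2α AKO was well above the other 2 of its group. The log2 fold change was 1.47 (SE 0.26, adjusted p = 0.00357 by edgeR) in WT and 1.44 (SE 0.25, adjusted p = 0.00306) in HIF2α AKO, and 1.10 in HIF2α AKO at the lowest when 1 library was left out.

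Pde7a encodes an enzyme that has been studied in T cells. It was at 69.2, 75.6 and 64.5 CPM in TN WT and 53.5, 55.0 and 53.3 CPM in cold WT. In HIF2α AKO it was at 82.5, 66.6 and 73.6 CPM at TN and 45.0, 53.5 and 62.7 CPM in cold. Every cold library was below every TN library of its genotype. The log2 fold change was -0.37 (SE 0.12, adjusted p = 0.0513 by edgeR) in WT, just short of the threshold, and -0.47 (SE 0.12, adjusted p = 0.0194) in HIF2α AKO. The HIF2α AKO call was lost without replicates 1 or 3 of TN HIF2α AKO (adjusted p = 0.0828 and 0.0501) or replicates 1 or 2 of cold HIF2α AKO (0.0787 and 0.0527). The WT difference was called in 7 of 13 alternatives, with adjusted p from 0.0168 to 0.0475. These were DESeq2, DESeq2-type size factors, no filter on low counts, the 2 groups alone, library size alone, upper quartile scaling, and the fit without replicate 3 of TN WT. Lymphocyte markers were lower in cold with no overlap in either genotype, and macrophage markers were so in HIF2α AKO alone, as given above. The part of either in the Pde7a level was not tested.

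Pde8a (chr7:81213596-81334533, plus strand) rose in both genotypes, whereas the difference of Pde8b (chr13:95024454-95250336, minus strand) did not pass the test. Pde8a was at 37.8, 28.9 and 29.2 CPM in TN WT and 63.8, 57.2 and 77.8 CPM in cold WT. Among HIF2α AKO mice it was at 32.9, 47.2 and 38.4 CPM at TN and 86.1, 60.0 and 64.7 CPM in cold. The groups did not overlap. Its log2 fold change upon cold was 1.05 (SE 0.18, adjusted p = 0.00366 by edgeR) in WT and 0.83 (SE 0.18, adjusted p = 0.00933) in HIF2α AKO.

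Pde8b stayed between 2.86 and 5.0 CPM in all 12 libraries. Its log2 fold change had a 95% interval from -0.30 to 0.70 in WT and from -0.40 to 0.62 in HIF2α AKO. Changes within these bounds were not excluded. Of its exon bases, 7.60% are shared with the antisense gene Gm48420. The same holds for 5.82% of Pde3a (Gm28523) and 0.62% of Pde7a (Gm16093). The strand setting of the counting is not given in the sources used here, so reads in these stretches cannot be assigned to a strand.

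Pde3b (chr7:114415281-114539251, plus strand), the insulin-responsive enzyme of fat cells, had higher values in cold WT that did not pass the test. It was at 215, 149 and 253 CPM in TN WT and 327, 263 and 462 CPM in cold WT, and these groups did not overlap. In HIF2α AKO it was at 215, 295 and 202 CPM at TN and 396, 340 and 231 CPM in cold, where replicate 3 lay among the TN libraries. The log2 fold change was 0.77 (SE 0.27, adjusted p = 0.0649 by edgeR) in WT and 0.44 (SE 0.27, adjusted p = 0.235) in HIF2α AKO. The WT difference was called by DESeq2 (adjusted p = 0.0276), and by edgeR without replicate 3 of TN WT (0.0469) or replicate 2 of cold WT (0.0462).

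Pde3a, known from heart, platelets and smooth muscle, was at 5.52 to 9.49 CPM over all libraries. Its log2 fold change was 0.26 (SE 0.16, adjusted p = 0.248 by edgeR) in WT and -0.15 (SE 0.16, adjusted p = 0.499) in HIF2α AKO. The 8 smooth muscle and pericyte markers summed to 540 to 721 CPM in TN WT and 616 to 730 CPM in cold WT, and to 503 to 615 CPM and, with no overlap, 666 to 704 CPM in HIF2α AKO.

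**Figure D2:**
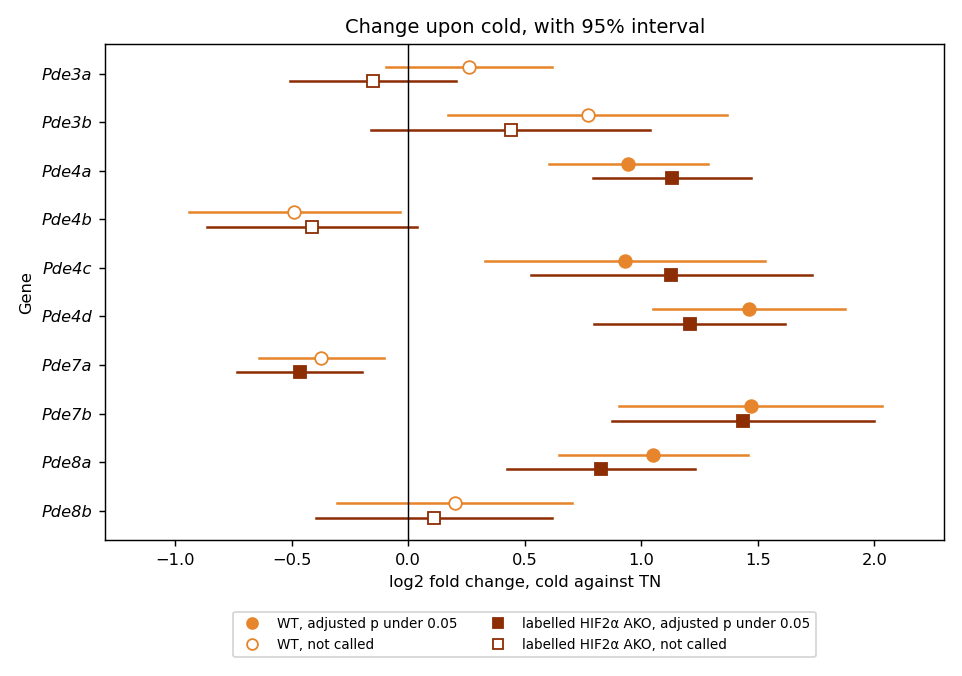
log2 fold change of each transcript in cold against TN, with bars for 95% intervals, circles for WT and squares for the libraries labelled HIF2α AKO, filled where the edgeR adjusted p was under 0.05. Filled points lie to the right for Pde4a, Pde4c, Pde4d, Pde7b and Pde8a in both genotypes, and to the left for Pde7a in HIF2α AKO.

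Pde4a, Pde4d, Pde7b and Pde8a were called higher in both genotypes in each of the 13 alternatives per comparison. TMM factors lay between 1.02 and 1.20 at TN and between 0.829 and 0.991 in cold, with no overlap. Of all genes called in WT, 73.3% were higher in cold with TMM, 42.6% with upper quartile scaling and 24.3% with library size alone. In HIF2α AKO these shares were 57.5, 42.4 and 23.8%.

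Ratios of counts within a library do not depend on scaling and show how the subfamilies shifted. Of 5 pairs within subfamilies, chosen after the values were seen, the ratio of Pde4d to Pde4b was 0.399 ± 0.0994 in TN WT and 1.62 ± 0.753 in cold WT. Among HIF2α AKO mice it was 0.486 ± 0.122 at TN and 1.56 ± 0.639 in cold. The ratio of Pde7b to Pde7a was 0.182 ± 0.0604 and 0.648 ± 0.0248 in WT, and 0.214 ± 0.0515 and 0.832 ± 0.439 in HIF2α AKO. TN and cold libraries did not overlap for these ratios or for Pde4a to Pde4b, in either genotype. With 3 mice against 3, the two-sided exact permutation test gave p = 0.1 for each, the smallest it allows. Because the pairs were chosen on these same values, neither the lack of overlap nor the p-values give separate support for a shift.

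The ratio of Pde8a to Pde8b was 8.85 ± 0.618 in TN WT and 17.5 ± 8.51 in cold WT, with no overlap. In HIF2α AKO it was 11.1 ± 2.99 and 18.6 ± 6.13, with overlap (exact permutation p = 0.2). The ratio of Pde3b to Pde3a overlapped between TN and cold in both genotypes (exact permutation p = 0.2 in each).

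**Figure D3:**
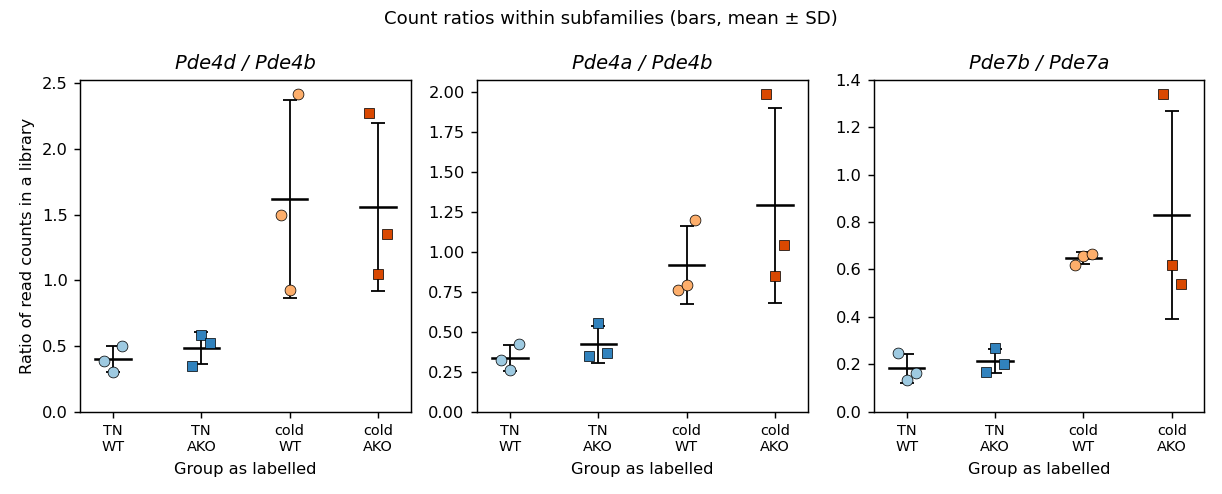
Ratio of read counts between 2 members of a subfamily in each library, for Pde4d to Pde4b, Pde4a to Pde4b and Pde7b to Pde7a, with points for mice and bars for mean ± SD. In each panel all cold points lie above all TN points, as for Pde4d to Pde4b, which was 0.305 to 0.585 at TN and 0.926 to 2.42 in cold.

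The summed level of the 10 transcripts was 53.6 ± 5.31 CPM per kb in TN WT and 83.2 ± 13.9 in cold WT, and 60.7 ± 6.19 and 83.7 ± 12.5 in HIF2α AKO. Pde3b took the largest share in all 4 groups, at 41.7 ± 7.28% in TN WT and 45.6 ± 5.61% in cold WT. The share of Pde7a was 17.0 ± 3.12% in TN WT and 8.53 ± 1.48% in cold WT, and that of Pde4b 12.0 ± 2.91% and 5.68 ± 2.10%. The share of Pde8a was 14.7 ± 1.88% and 19.7 ± 0.186%, and that of Pde4d 4.05 ± 0.115% and 7.14 ± 0.765%. Shares sum to a whole, so a rise in one lowers the others. The sum and the shares cover these 10 genes only. Pde2a, a dual-specificity phosphodiesterase outside them, was at 180 ± 14.2 CPM in TN WT and 190 ± 11.7 CPM in cold WT. Among HIF2α AKO mice it was at 185 ± 13.3 and 179.5 ± 6.66 CPM. Its exons hold 6149 bases against 9114 for Pde3b. Per kb, its mean was thus above that of Pde3b at TN and below it in cold, in both genotypes.

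**Figure D4:**
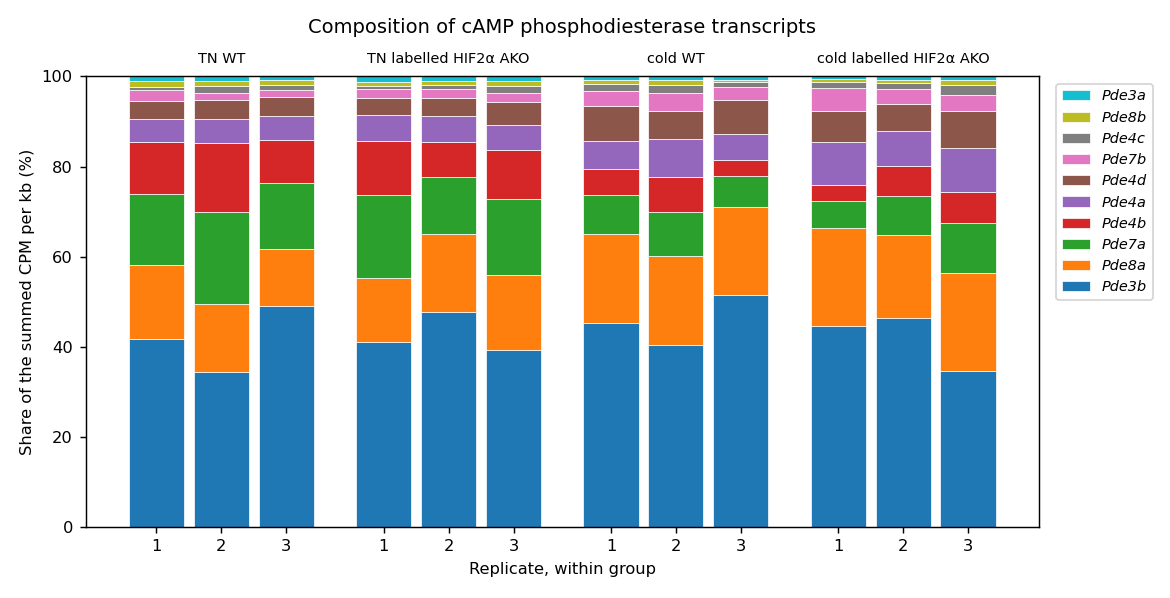
Share of each transcript in the summed CPM per kb of the 10 genes (%), as stacked bars for the 12 libraries in 4 groups. Pde3b is the largest segment in every library, and the Pde7a segment takes 12.7 to 20.6% at TN and 5.96 to 11% in cold.

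No difference of a phosphodiesterase between the labelled genotypes passed the test. At TN, 0 of 10 were called by edgeR and DESeq2 called 0, beside 0.00653% of all genes called. An unadjusted p under 0.05 was found for 0 of 10, beside 446 of all genes tested. In cold, 0 of 10 were called by edgeR and 0 by DESeq2, beside 0.00653% of all genes called. An unadjusted p under 0.05 was found for 1 of 10, beside 451 of the 15306 genes tested. That gene was Pde4a, with a log2 fold change of 0.46 (SE 0.15, 95% interval 0.12 to 0.79, adjusted p = 1.00 by edgeR). Its cold WT and cold HIF2α AKO libraries did not overlap. At TN the libraries of WT and HIF2α AKO did not overlap either for Pde3a and Pde4a. The share of all genes without overlap was not taken. In cold the log2 fold change of Pde4a was 0.28 without replicate 1 of cold HIF2α AKO. That library had skeletal muscle markers and the highest thermogenic adipocyte sum.

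The other 9 had log2 fold changes between -0.12 (Pde3b) and 0.28 (Pde7b, at -0.06 without replicate 1 of cold HIF2α AKO) in cold. At TN the 10 ranged from -0.06 (Pde4b) to 0.33 (Pde3a). The widest 95% intervals were those of Pde4c at TN, from -0.64 to 0.57, and of Pde3b in cold, from -0.72 to 0.47. With 3 mice per group, differences within these bounds were not excluded. The narrowest were those of Pde7a, from -0.18 to 0.36 at TN and from -0.27 to 0.26 in cold.

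The response to cold was also compared between genotypes through the interaction of genotype and temperature. It was called for 0 of 10 genes by edgeR and by DESeq2, with 0 of 10 at an unadjusted p under 0.05, and for 0% of all genes, of which 327 had an unadjusted p under 0.05. The estimates ran from -0.41 (95% interval -0.91 to 0.09) for Pde3a to 0.20 (-0.65 to 1.05) for Pde4c on the log2 scale.

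**Figure D5:**
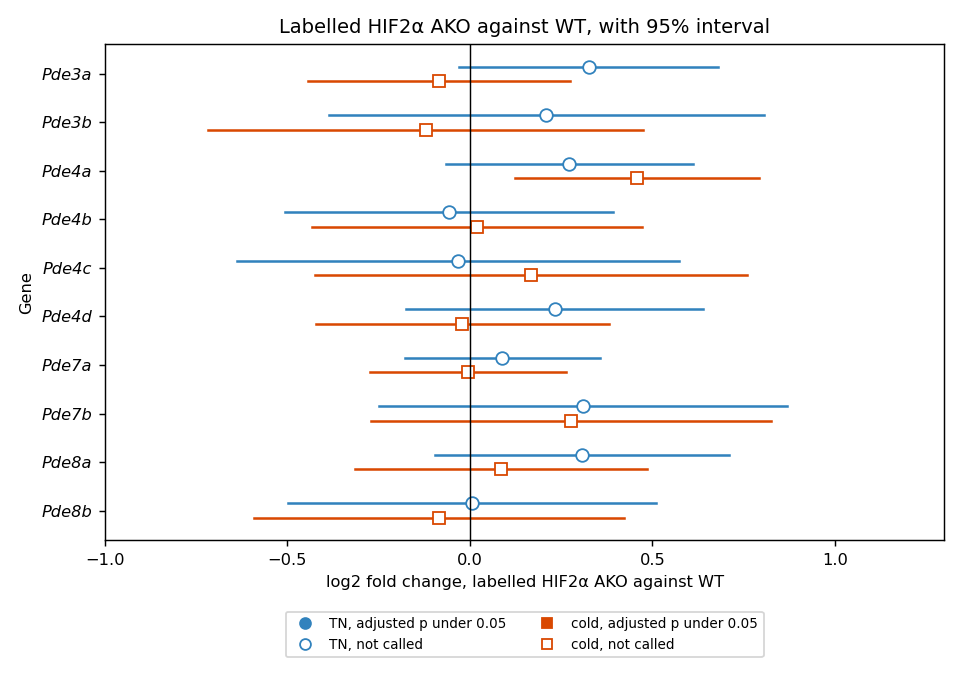
log2 fold change of each transcript in the libraries labelled HIF2α AKO against WT, with bars for 95% intervals, circles for TN and squares for cold. No point is filled, since none passed the test, and the interval of Pde4a in cold, 0.12 to 0.79, is the one that leaves out 0.

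The other genes of the pathway were taken from 4 lists, which were written with earlier results of these data known. Among all genes tested, 15.6% rose in each genotype, and 5.68% fell in WT and 11.5% in HIF2α AKO. The counts called in each list below are to be read beside these shares. Of 18 tested genes of cAMP synthesis (receptors, G proteins and adenylyl cyclases), 7 rose and 0 fell in WT, and 7 rose and 1 fell in HIF2α AKO. The list's median log2 fold change was 0.41 and 0.31. Adcy3, an adenylyl cyclase, had log2 fold changes of 2.39 in WT and 2.6 in HIF2α AKO, and Adora1, a receptor that inhibits adenylyl cyclase, rose by 1.32 in WT and had 0.60 in HIF2α AKO (adjusted p = 0.283 by edgeR). Adrb1, the β1-adrenergic receptor, rose by 1.21 in WT and 1.98 in HIF2α AKO. Gpr3, a receptor that signals without ligand, was called at log2 fold changes of 3.83 and 2.77, on at most 5 reads in any TN library and at most 21 in any cold library.

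Of 15 effectors of cAMP and PKA targets, 4 rose and 2 fell in WT, and 4 rose and 1 fell in HIF2α AKO, with medians of 0.19 and 0.21. Pnpla2, the triglyceride lipase of adipocytes, had log2 fold changes of 2.09 and 1.43. Prkar2b, a regulatory subunit of PKA, had 1.78 and 1.73, and Prkaca, the catalytic subunit, 1.20 and 1.35. Those that fell were Creb1, a transcription factor phosphorylated by PKA, at -0.50 and -0.42, and Rapgef4, which encodes the cAMP sensor EPAC2, at -0.54 in WT and, not called, -0.37 in HIF2α AKO (adjusted p = 0.118 by edgeR). These last 2 genes were named after their values were seen.

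Of 16 tested genes for partners of PDE3B and PDE4 and for the insulin arm, 3 rose and 0 fell in WT. In HIF2α AKO 3 rose and 1 fell, and the medians were 0.05 in both. The share of all genes tested that rose was 15.6% in each genotype. Abhd15, whose product binds PDE3B, had log2 fold changes of 1.54 and 0.94. Akt1, a kinase downstream of insulin, had 0.46 and 0.47, and Insr, the insulin receptor, rose by 0.62 in WT and had 0.49 in HIF2α AKO (adjusted p = 0.0594 by edgeR). Akt2 rose by 0.63 in HIF2α AKO and had 0.59 in WT (adjusted p = 0.0616 by edgeR). Pik3cg, the catalytic subunit of PI3Kγ, was at -0.79 in HIF2α AKO and, not called, -0.62 in WT (adjusted p = 0.0825 by edgeR).

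Of 9 tested dual-specificity and cGMP phosphodiesterases, 1 rose in WT and 2 in HIF2α AKO, and 0 fell in either. Beside these, 15.6% of all genes tested rose in each genotype. Pde1a, a calmodulin-dependent enzyme, had log2 fold changes of 0.88 and 0.62, and Pde1c rose by 0.78 in HIF2α AKO and had 0.28 in WT (adjusted p = 0.426 by edgeR). The medians were 0.06 and -0.04. In the comparisons between genotypes, 0 genes of these 4 lists were called by edgeR, beside 0.00653% of all genes at TN and in cold.

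As a description over the 12 libraries, which share the step from TN to cold, the genes whose log2 CPM followed Pde3b most closely among 13134 candidates were Tmem223, Pgrmc2 and Dram2, with Pearson's r of 0.988, 0.982 and 0.979. Those closest to Pde7b were Chst11, Acot4 and Galc, with r of 0.987, 0.981 and 0.980.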

How the data were processed

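RNA of iWAT from 12 mice in 4 groups of 3 was analysed. The authors trimmed reads with Trim Galore 0.4.4, aligned them with STAR 2.6.1d to GRCm38 and deposited read counts per gene made with HTSeq 0.13.5, without normalization; annotation and strand setting are not given in the sources used here. Reads outside genes (21.9 to 27.0% of those listed) were left out. Genes were kept by filterByExpr (minimum count 10, total 15). After TMM scaling, the 4 groups were fitted together by quasi-likelihood in all 12 libraries, with R 4.3.3, edgeR 4.0.16 and limma 3.58.1, and DESeq2 1.42.0 as an alternative. P-values were adjusted over all 15306 genes. The fitting was tested on simulated data. The members and lists were chosen with earlier results of these data known. All 10 members are named. From each other list, at most 3 called genes with the largest absolute log2 fold change in cold are named per genotype, with Creb1 and Rapgef4 added after their values were seen, and Epas1, Ucp1 and Prkaca serve as references. Likeness is given for the most abundant member and for the largest rise. No source says that libraries came from separate cohorts, so p-values measure the spread between these mice.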

Additional observations from a re-analysis of the deposited data

How the results depend on the processing

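In cold against TN, Pde3b, Pde4b, Pde4c and Pde7a gained or lost a call in at least 1 alternative. The number of members called ranged from 4 to 7 in WT and from 4 to 6 in HIF2α AKO. Replicates were treated as sharing only a number. Same-numbered libraries deviated together (r above 0.1) in 5 of 18 pairs, with r from -0.51 to 0.52. Of 12 libraries, 3 were closest to their own number. The rate for pairs with different numbers was not taken, so a partial pairing is not excluded. With the replicate block the members called were 5 and 6, as without it, and the genes called 2561 in WT and 3313 in HIF2α AKO. Library size alone, upper quartile scaling and the longest transcript were chosen after seeing the data. The genes called in WT were 3259, 1752 with the 2 groups alone and 5888 with library size alone, and in HIF2α AKO 4138 and 6365 with library size alone. Leaving out 1 library gave 1381 to 3722 genes in WT and 1613 to 4155 in HIF2α AKO. Between genotypes, 1 gene was called at TN and 1 in cold, DESeq2 called 9 and 7, and the 2 groups alone gave 0 and 0. Of the WT calls, 83.8% were higher with the 2 groups alone and 61.4% with DESeq2. Library size alone moved the median log2 fold change of all genes to -0.33 in WT and -0.32 in HIF2α AKO, and upper quartile scaling to -0.17 and -0.14. With library size alone Pde4c was not called in WT (adjusted p = 0.0813). The causes were not tested.

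Directions turned for small estimates. With library size alone, cold against TN gave -0.055 for Pde3a and -0.072 for Pde8b in WT and -0.155 for Pde8b in HIF2α AKO. Between genotypes in cold, Pde4d was at 0.003, 0.014 and 0.003 and Pde7a at 0.018, 0.027 and 0.019 with DESeq2-type size factors, no filter and DESeq2, and Pde4b at -0.023 with library size alone. Between genotypes at TN, Pde8b was at -0.015, -0.006, -0.048 and -0.037 with no filter, the 2 groups alone, library size alone and upper quartile scaling. The interaction of Pde7b was 0.032 with no filter and 0.011 with upper quartile scaling.

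Leaving out 1 library at a time gave these lowest and highest log2 estimates where the direction turned. In cold against TN in HIF2α AKO this held for Pde8b -0.058 to 0.202. Between genotypes at TN this held for Pde4b -0.171 to 0.048, Pde4c -0.313 to 0.221, Pde8b -0.089 to 0.115. Between genotypes in cold this held for Pde3a -0.157 to 0.091, Pde3b -0.297 to 0.129, Pde4b -0.143 to 0.215, Pde4d -0.159 to 0.156, Pde7a -0.13 to 0.107, Pde7b -0.062 to 0.425, Pde8a -0.088 to 0.215, Pde8b -0.295 to 0.104. For the interaction this held for Pde4b -0.085 to 0.292, Pde4c -0.054 to 0.48, Pde7a -0.22 to 0.017, Pde7b -0.371 to 0.123, Pde8b -0.301 to 0.115. None of these results passed the test in any fit.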
